A study of Ovis aries with 6 samples.

Results

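The WNT ligands, receptors, inhibitors and effectors were examined in the skin of 2 sheep breeds with different wool. They were taken by gene symbol: WNT, FZD, SFRP, DKK, RSPO, AXIN, KREMEN and NKD followed by a number, together with LRP5, LRP6, LEF1, TCF7, TCF7L1, TCF7L2, CTNNB1, LGR4, WIF1, PORCN, WLS, RNF43, ZNRF3 and APC. This gave 59 of the 28394 genes in the files. Of these, 18 encode ligands, 2 act in ligand processing and secretion, 12 are receptors, 9 are secreted inhibitors, 4 are inhibitors at the cell surface, 5 are the R-spondins and their receptor LGR4, 5 act in the cytoplasm and 4 are TCF/LEF factors.

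Skin RNA of 3 Super Merino (SM) and 3 Small Tailed Han (STH) ewes was sequenced, with 1 library per sheep. SM is a fine wool breed and STH a coarse wool breed, no sheep was treated, and the comparison asks how skin expression differs between them. All sheep were kept on the same farm, their age is 9 months in the sample records and lower in the methods of the study, and the skin was taken behind the shoulder blade. The SM sheep carry the names 128, 30034 and 30126, while XW3, XW5 and XW8 are STH sheep, and values are given in this order throughout.

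WNT proteins are secreted, lipid-modified ligands that bind Frizzled receptors and the coreceptors LRP5 and LRP6. Binding stops the AXIN and APC complex from marking beta-catenin for degradation, and beta-catenin then acts with TCF/LEF factors in the nucleus. In skin the pathway is known for the induction of hair follicles and for the start of a new growth phase of the hair cycle.

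The libraries held between 28870583 and 44645091 counts. Counts were scaled by the TMM method of edgeR and compared by its quasi-likelihood test over the 15320 genes that reached 10 counts in 3 sheep or more. A gene passed if its Benjamini-Hochberg adjusted p was under 0.05 and the breeds differed by over 1.5-fold in either direction. All fold changes are SM over STH. No gene passed (0% of the genes tested), against 2762 genes (18.0%) with an unadjusted p under 0.05, and 1175 genes passed when SM sheep 128 was left out. By other tests on all sheep, 352 (edgeR's likelihood ratio test), 332 (its exact test), 443 (DESeq2) and 0 (limma-voom) genes passed. The study named the EdgeR algorithm and the same thresholds, but not which test. It did report genes that differed between the breeds, among them SFRP2, WNT2 and APCDD1L, which are described below. The skin label was matched by keratinocyte, fibroblast and hair follicle markers, and no marker found in the files was at 0 in all sheep. The whole marker lists differed between the libraries. The CPM (counts scaled to library size and by TMM) was summed over each list. For 5 follicle matrix and shaft markers it was 2189, 2316 and 4459 in SM and 1513 to 2438 in STH sheep. All 5 were higher in SM sheep on average. Another follicle list, of 4 inner root sheath markers, summed to 9706 to 12621 in SM and 11544 to 16572 in STH sheep. Of these 4, 3 were higher in STH sheep on average. The summed CPM of 4 suprabasal keratinocyte markers was 2007 to 2649 in SM and 3297 to 6279 in STH sheep, and that of 5 smooth muscle markers 855 to 975 and 1487 to 1891. The 5 adipocyte markers summed to 30.9 to 66.7 CPM in SM and 140 to 177 CPM in STH sheep. Of the 4 adipocyte markers that were tested, 3 were higher in STH and 1 in SM sheep on average. The 5 sebocyte markers summed to 773 to 1516 in SM and 419 to 592 in STH sheep, and the 6 fibroblast markers to 14610 to 20936 and 16993 to 20971. The part of these shifts in the values below was not tested. In whole skin, fewer cells of a type and less RNA per cell cannot be told apart.

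Nearly every branch of the WNT pathway was represented in the skin RNA. Compared per length, as the mean RPKM of the 6 sheep, 45 of the 59 genes had at least 1 RPKM and 13 had at least 10 RPKM. The most abundant was CTNNB1, which encodes beta-catenin, at 64.3 RPKM. It was followed by the secreted inhibitor SFRP1 at 55.3 RPKM, the transcription factor LEF1 at 33.2 RPKM and the receptor FZD10 at 29.3 RPKM. KREMEN1, a receptor of the DKK inhibitors, had 28.4 RPKM, and WLS, the carrier that brings WNT proteins to the cell surface, had 28.3 RPKM. Among the R-spondin genes and LGR4, the receptor LGR4 was highest at 9.57 RPKM.

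No ligand reached the level of CTNNB1, SFRP1, LEF1, FZD10, KREMEN1 or WLS. WNT11 was the most abundant ligand at 13.0 RPKM, and it was followed by WNT3 at 7.21, WNT10A at 6.04 and WNT5A at 5.70 RPKM. WNT11 and WNT5A are known mainly for signalling independent of beta-catenin, whereas WNT3 and WNT10A are known for signalling through it. The ligands WNT1, WNT8A, WNT8B and WNT9B were each under 0.1 RPKM.

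**Figure D1:**
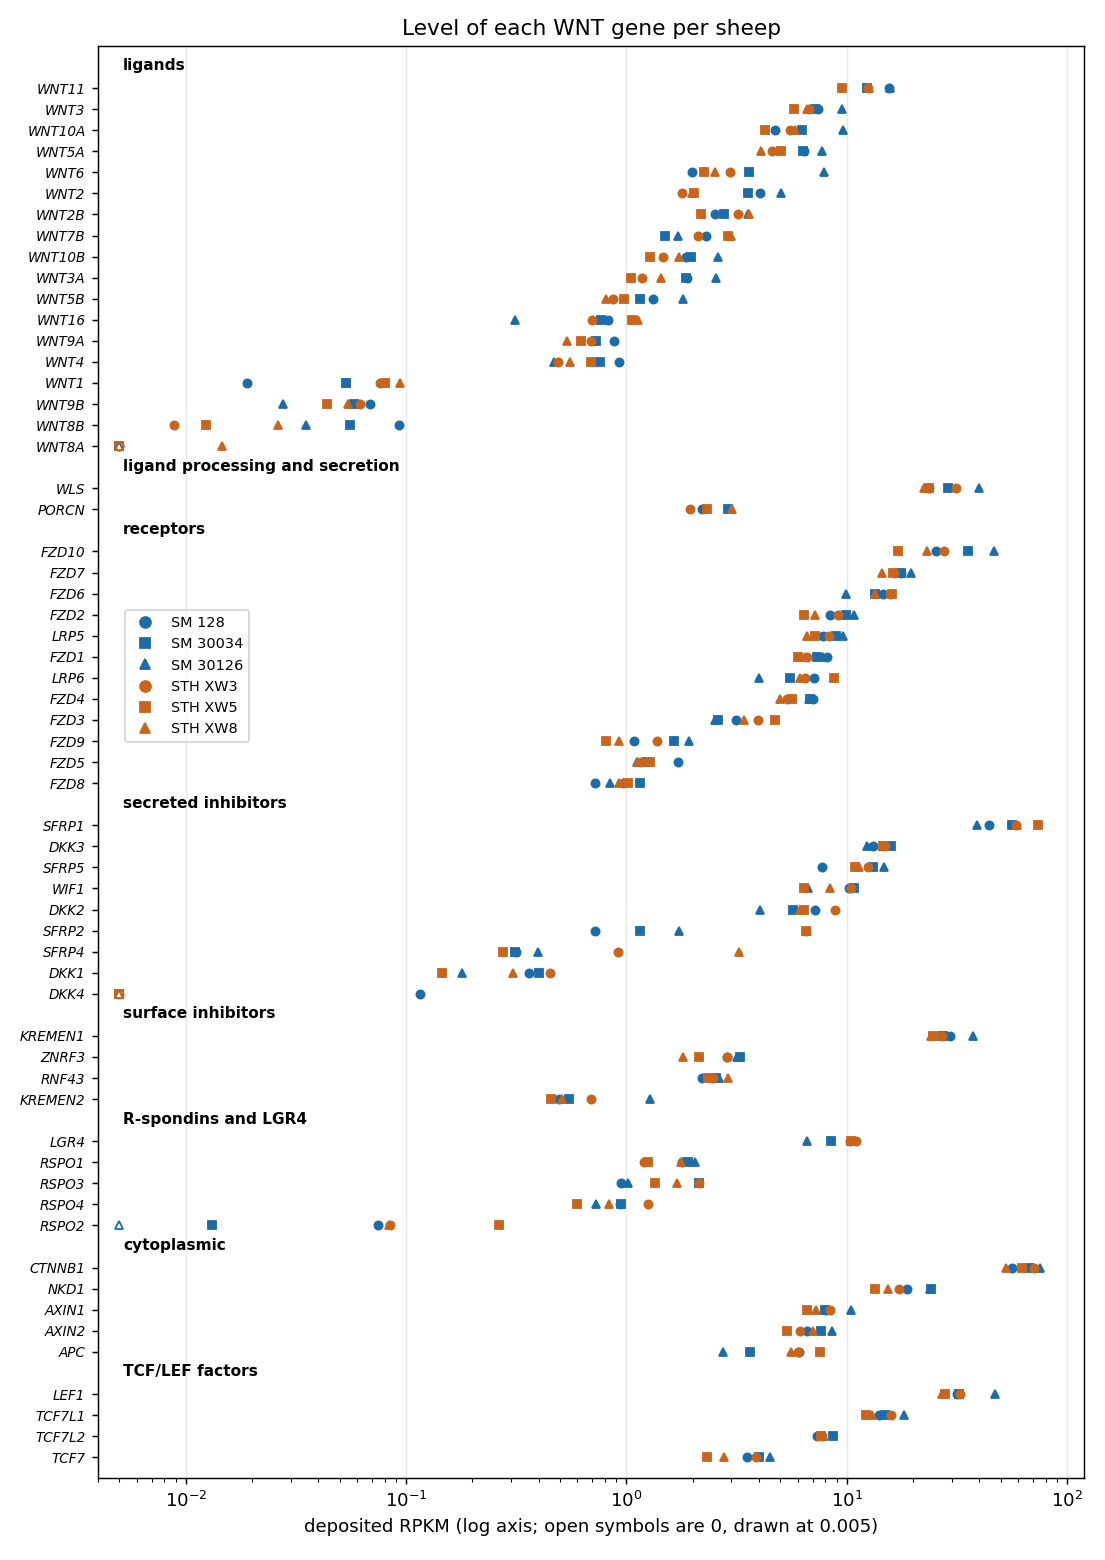
Deposited RPKM of the 59 WNT genes in each sheep on a log axis, grouped by role and ordered by mean within a role; blue symbols are SM and orange symbols STH sheep, and open symbols are values of 0 drawn at 0.005. CTNNB1 (mean 64.3 RPKM) and SFRP1 (55.3) lie farthest to the right, and SFRP2 shows the 3 STH sheep together, to the right of the 3 SM sheep.

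Some ligand genes that lie next to each other had very different levels. On chromosome 3 of Oar_v4.0, WNT1 (136877161 to 136881445) and WNT10B (136888219 to 136894451) are 6773 bases apart on opposite strands, and their mean levels were 0.0626 and 1.82 RPKM, a ratio of 29.0. On chromosome 11, WNT9B (44698545 to 44726853) and WNT3 (44751567 to 44803136) are 24713 bases apart, also on opposite strands, and their mean levels were 0.0523 and 7.21 RPKM, a ratio of 138. The levels were closer for WNT6 and WNT10A, which are 7454 bases apart on chromosome 2 and had 3.53 and 6.04 RPKM. WNT3A and WNT9A, 52823 bases apart on chromosome 5, had 1.66 and 0.694 RPKM.

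The breed comparison could be tested for 55 of the 59 genes. WNT1, WNT8A, RSPO2 and DKK4 were under the count minimum. None of the 55 passed the quasi-likelihood test, and their adjusted p lay between 0.106 and 0.985. At an unadjusted p under 0.05 there were 14 of the 55 genes (25.5%, against 18.0% of all genes tested), 8 with the higher mean in SM and 6 with the higher mean in STH sheep. These are 14.5% and 10.9% of the 55 genes, against 7.21% and 10.8% of all genes tested. The breeds did not overlap for 18 of the 55 genes, against 25.6% of all genes tested. In 14 of them every SM sheep was above every STH sheep (25.5% of the 55 genes, against 12.3% of all genes tested), and in 4 the order was the reverse (7.27%, against 13.3%). The log2 fold change was above 0 for 34 of the 55 genes (61.8%, against 51.4% of all genes tested). Its median over the 55 genes was 0.20 and over all genes tested 0.02. Without SM sheep 30126 the median of the 55 genes was 0.10. The counts above include WNT8B, which reached the count minimum in SM sheep only and so had to differ. Of the 54 genes without it, 13 had an unadjusted p under 0.05, 7 with the higher mean in SM and 6 in STH sheep. In 13 every SM sheep was above every STH sheep, 33 were above 0, and the median was 0.19.

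**Figure D2:**
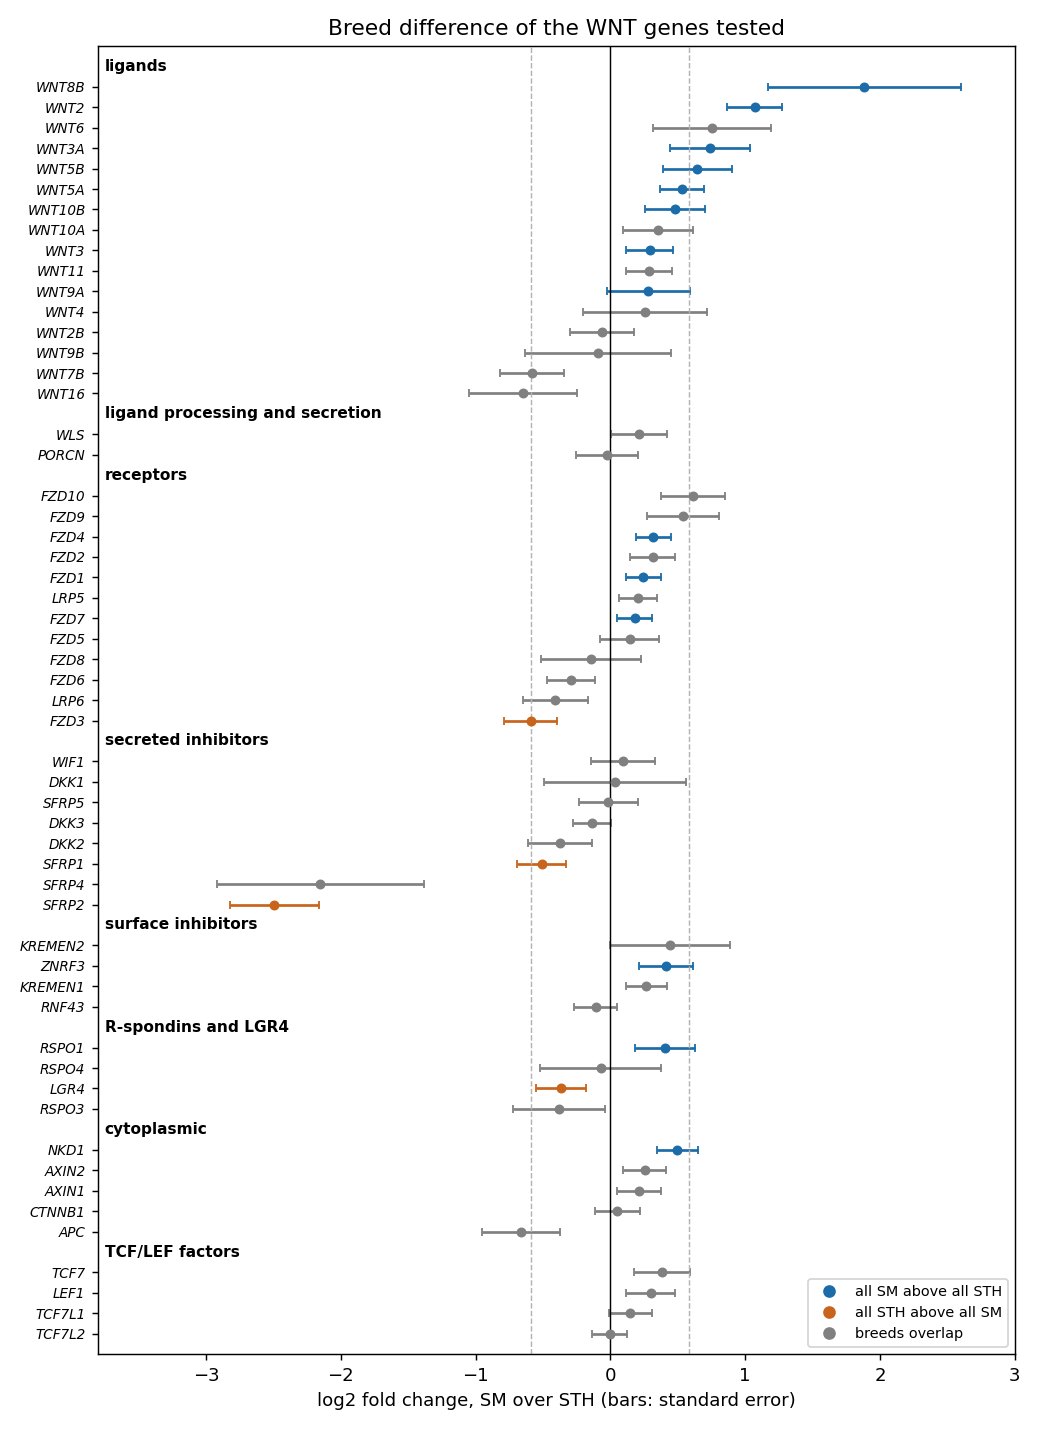
Log2 fold change (SM over STH) of the 55 WNT genes tested, grouped by role, with the standard error as bars and dashed lines at the threshold of 1.5-fold in either direction; blue marks genes with all SM above all STH sheep, orange the reverse and grey overlapping breeds. SFRP2 (-2.49) lies far from the other secreted inhibitors, apart from SFRP4 (-2.15) with its wide bar, and 8 of the 16 ligands are blue and none is orange.

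The secreted inhibitors bind WNT proteins, as the SFRP proteins and WIF1 do, or block the LRP coreceptors, as DKK1 and DKK2 do. SFRP2 had the smallest p of all 55 genes. Its CPM was 0.926, 1.42 and 2.17 in SM and 8.30, 8.60 and 8.64 in STH sheep. The lowest STH sheep lay far above the highest SM sheep, and the 3 STH sheep were close to each other. The SM mean was 1.50 ± 0.624 (SD, n = 3) and the STH mean 8.51 ± 0.185 (SD, n = 3). The log2 fold change was -2.49 (SE 0.33), which is 5.63-fold higher in STH skin, with an unadjusted p of 4.16e-05 that 5 of the 15320 genes undercut. The adjusted p of 0.106 missed the threshold. It was 2.21e-08 by edgeR's likelihood ratio test, 2.54e-08 by its exact test and 1.69e-10 by DESeq2, all of which passed SFRP2, and over all alternatives it ranged from 1.69e-10 to 0.400. These 3 tests passed 2.30%, 2.17% and 2.95% of all genes. The counts behind these values were 28, 64 and 85 in SM and 256, 363 and 261 in STH sheep. SFRP2 lies on the plus strand of chromosome 17, from 3727931 to 3735374.

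SFRP1 was the most abundant of the secreted inhibitors, and it too was higher in every STH sheep. Its CPM was 254, 307 and 214 in SM and 329, 431 and 343 in STH sheep, so that the breeds were separated by a narrow gap between SM sheep 30034 and STH sheep XW3. The log2 fold change was -0.51 (SE 0.18), with an unadjusted p of 0.0217 and an adjusted p of 0.254. Per length, SFRP1 had 46.5 RPKM in SM and 64.0 RPKM in STH sheep, against 1.20 and 6.58 RPKM for SFRP2. SFRP1 lies on the minus strand of chromosome 26, from 34683936 to 34737785.

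SFRP4 had a log2 fold change of -2.15 (SE 0.77), which rested on 1 library. Its CPM was 0.793, 0.753 and 0.968 in SM and 2.27, 0.711 and 8.27 in STH sheep. STH sheep XW8 was high and XW5 lay under every SM sheep, so that the breeds overlapped. Without XW8 the log2 fold change was -0.82 with an unadjusted p of 0.200, against 0.0215 with all sheep.

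The remaining SFRP gene differed little between the breeds. SFRP5 had 20.6, 33.4 and 37.9 CPM in SM and 32.7, 29.5 and 30.7 CPM in STH sheep, with a log2 fold change of -0.02 (SE 0.22) that turned sign with upper quartile scaling. DKK1, DKK2, DKK3 and WIF1 had overlapping breeds as well, with log2 fold changes of 0.04 (SE 0.53), -0.37 (SE 0.24), -0.14 (SE 0.14) and 0.09 (SE 0.24). Of the 8 secreted inhibitors tested, 3 had an unadjusted p under 0.05 with the higher mean in STH sheep (37.5%, against 10.8% of all genes tested). They were SFRP1, SFRP2 and SFRP4, the last of which rested on STH sheep XW8. The median log2 fold change of the 8 genes was -0.26.

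**Figure D3:**
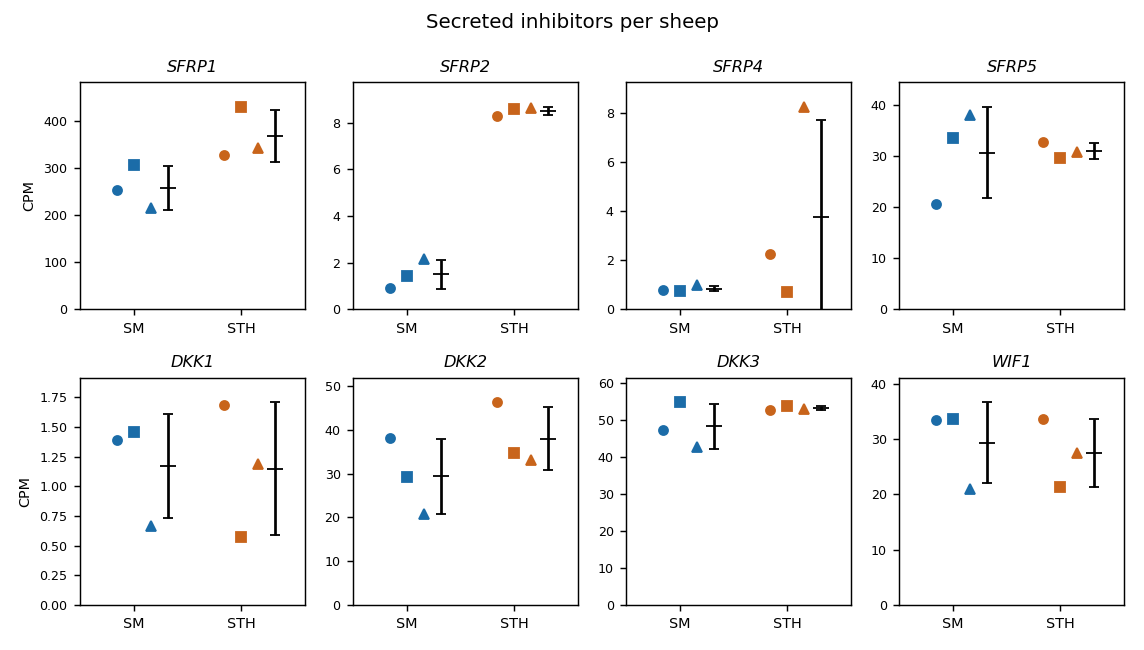
CPM of the 8 secreted inhibitors tested in each sheep; circles, squares and triangles are 128, 30034 and 30126 in SM (blue) and XW3, XW5 and XW8 in STH sheep (orange), and the black bars are the mean and SD of 3 sheep, with the bar of SFRP4 in STH sheep ending at the axis. SFRP2 is at 2.17 CPM or less in all SM sheep and at 8.30 CPM or more in all STH sheep, whereas the SFRP4 mean of STH sheep is set by 1 sheep at 8.27 CPM.

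The ligands had the opposite balance. Of the 16 ligands tested, 12 had a log2 fold change above 0 (75%, against 51.4% of all genes tested), with a median of 0.32, and for 8 of them every SM sheep was above every STH sheep (50% of the ligands, against 12.3% of all genes tested). At an unadjusted p under 0.05 there were 5 ligands with the higher mean in SM sheep (31.2%, against 7.21% of all genes tested) and 1 with the higher mean in STH sheep (6.25%, against 10.8%). These counts include WNT8B, which reached the count minimum in SM sheep only and so had to differ. Without it, 11 of 15 ligands were above 0, 4 had an unadjusted p under 0.05 and the higher mean in SM sheep, 7 had every SM sheep above every STH sheep, and the median was 0.29.

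WNT2 had the smallest p among the ligands. Its CPM was 12.6, 10.6 and 15.1 in SM and 5.48, 6.47 and 6.26 in STH sheep, without overlap. The SM mean was 12.8 ± 2.27 (SD, n = 3) and the STH mean 6.07 ± 0.520 (SD, n = 3), and the log2 fold change was 1.07 (SE 0.21), or 2.10-fold. The unadjusted p was 0.000635 and the adjusted p 0.168. WNT2 passed both thresholds by edgeR's likelihood ratio test (adjusted p = 0.00381), its exact test (0.00411) and DESeq2 (0.000878), and over all alternatives the adjusted p ranged from 0.000878 to 0.498. The gene lies on the plus strand of chromosome 4, from 50996179 to 51050036. WNT2 is a ligand known to stabilise beta-catenin.

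WNT5A and WNT5B are close relatives, and both were higher in every SM sheep. WNT5A had 22.3, 21.3 and 26.1 CPM in SM and 15.7, 18.0 and 14.5 CPM in STH sheep, with a log2 fold change of 0.53 (SE 0.16) and an unadjusted p of 0.0104. WNT5B had 6.08, 5.05 and 8.03 CPM in SM and 3.89, 4.57 and 3.77 CPM in STH sheep, with a log2 fold change of 0.64 (SE 0.26) and an unadjusted p of 0.0340. Their adjusted p values were 0.247 and 0.261. WNT3A, a ligand used widely to switch on beta-catenin signalling, had 3.27, 3.10 and 4.25 CPM in SM and 2.01, 1.85 and 2.52 CPM in STH sheep, again without overlap, and its log2 fold change was 0.74 (SE 0.30).

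WNT10B, WNT3 and WNT9A were also higher in all SM sheep without overlap, with smaller differences. WNT10B had 8.26, 8.30 and 11.1 CPM in SM and 6.32, 5.76 and 7.74 CPM in STH sheep, with a log2 fold change of 0.48 (SE 0.22). WNT3 had 13.7 to 18.4 CPM in SM and 11.8 to 13.4 CPM in STH sheep, with a log2 fold change of 0.29 (SE 0.18). WNT9A had 2.19 to 2.84 CPM in SM and 1.75 to 2.17 CPM in STH sheep, with a log2 fold change of 0.28 (SE 0.31) that was smaller than its standard error. The unadjusted p values of the 3 genes were 0.0600, 0.135 and 0.380.

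WNT8B had the largest log2 fold change of the ligands, 1.88 (SE 0.71) with an unadjusted p of 0.0280, but it was measured near the floor. Its counts were 21, 18 and 10 in SM and 2, 4 and 6 in STH sheep, and 3 counts correspond to between 0.0672 and 0.104 CPM at these depths. Such floors cover counting error only. Without WNT8B, 13 of the remaining 54 WNT genes had an unadjusted p under 0.05, against 18.0% of all genes tested.

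WNT7B was the ligand with an unadjusted p under 0.05 that was higher in STH sheep. It had 14.5, 9.01 and 10.4 CPM in SM and 13.0, 18.7 and 19.1 CPM in STH sheep, so that SM sheep 128 lay above STH sheep XW3, and its log2 fold change was -0.58 (SE 0.24). WNT11, the most abundant ligand, had 48.5, 37.0 and 47.2 CPM in SM and 38.1, 30.4 and 40.0 CPM in STH sheep, with overlap and a log2 fold change of 0.29 (SE 0.17). WNT6 and WNT10A were highest in SM sheep 30126, at 13.2 and 29.4 CPM, and their breeds overlapped. The breeds also overlapped for WNT2B, WNT4, WNT16 and WNT9B, with log2 fold changes of -0.06 (SE 0.24), 0.26 (SE 0.46), -0.65 (SE 0.40) and -0.09 (SE 0.54), the last of which turned sign with the length trend removed.

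**Figure D4:**
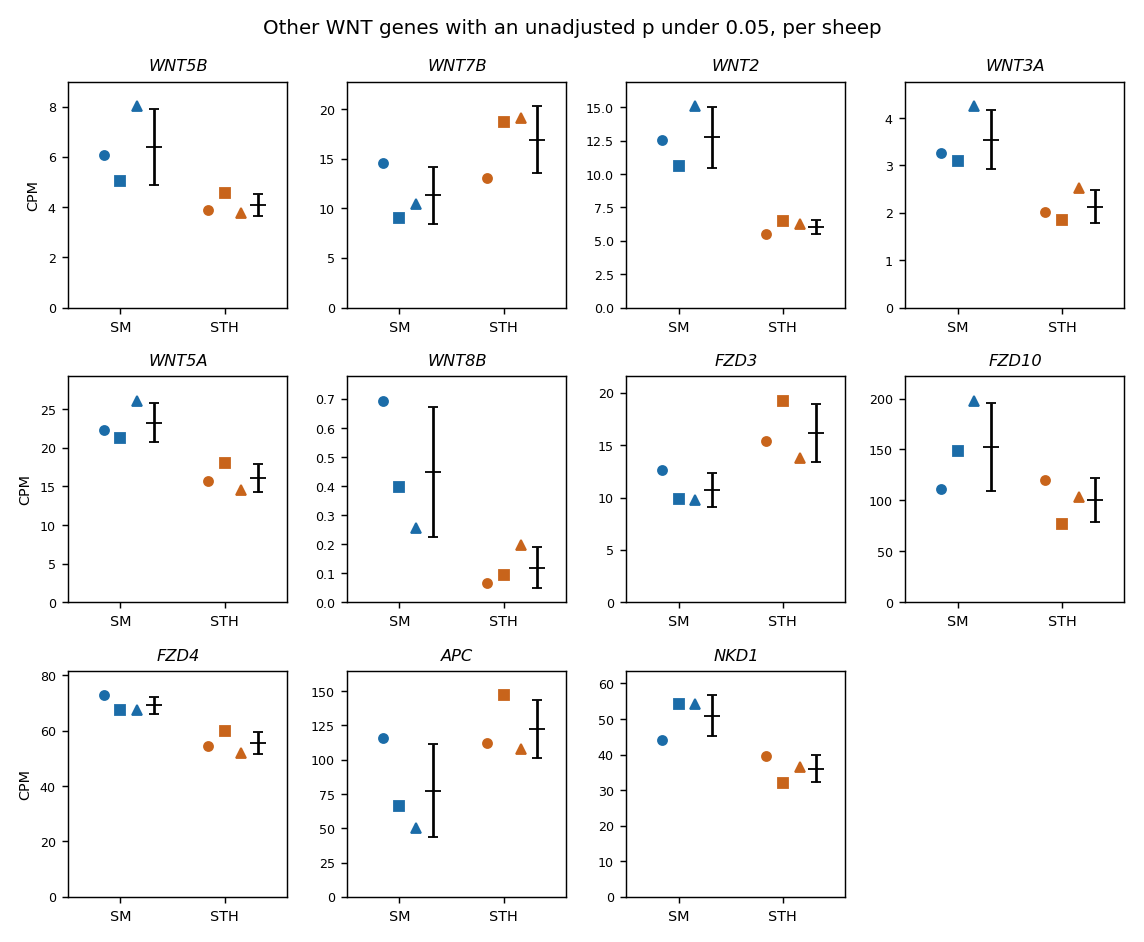
CPM in each sheep of the 11 WNT genes other than secreted inhibitors with an unadjusted p under 0.05; circles, squares and triangles are 128, 30034 and 30126 in SM (blue) and XW3, XW5 and XW8 in STH sheep (orange), and the black bars are the mean and SD of 3 sheep. WNT2 is at 10.6 CPM or above in SM and at 6.47 CPM or under in STH sheep, while the breeds overlap for WNT7B, FZD10 and APC.

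Ligand processing and secretion showed no difference larger than the spread between sheep. WLS had 262, 305 and 424 CPM in SM and 339, 266 and 251 CPM in STH sheep, with a log2 fold change of 0.21 (SE 0.21). PORCN, the enzyme that attaches the lipid to WNT proteins, had a log2 fold change of -0.02 (SE 0.23), which turned sign with upper quartile scaling.

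The Frizzled receptors differed in direction among themselves. FZD10 was the most abundant and had 112, 149 and 198 CPM in SM and 120, 76.7 and 103 CPM in STH sheep. STH sheep XW3 lay above SM sheep 128, and the log2 fold change was 0.61 (SE 0.24) with an unadjusted p of 0.0315 and an adjusted p of 0.260. FZD4, known also as a receptor of norrin in vessels, had 72.7, 67.5 and 67.3 CPM in SM and 54.3, 59.8 and 52.1 CPM in STH sheep, without overlap, and its log2 fold change was 0.32 (SE 0.13) with an unadjusted p of 0.0372. The 5 endothelial markers summed to 519 to 661 CPM in SM and 329 to 542 CPM in STH sheep, and their part in the FZD4 value was not tested.

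FZD3 was the receptor with all STH above all SM sheep. It had 12.6, 9.90 and 9.73 CPM in SM and 15.4, 19.3 and 13.8 CPM in STH sheep, with a log2 fold change of -0.59 (SE 0.20), an unadjusted p of 0.0160 and an adjusted p of 0.247. FZD3 is known for its part in planar cell polarity. FZD1 and FZD7 had all SM above all STH sheep, with log2 fold changes of 0.24 (SE 0.13) and 0.18 (SE 0.13). FZD1 had 69.2 to 80.7 CPM in SM and 60.6 to 64.7 CPM in STH sheep, and FZD7 had 66.0 to 74.3 and 57.3 to 64.7 CPM.

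The coreceptors LRP5 and LRP6 had overlapping breeds and log2 fold changes of opposite sign, 0.20 (SE 0.14) and -0.41 (SE 0.24). Among the other Frizzled genes, FZD9 and FZD2 had log2 fold changes of 0.54 (SE 0.27) and 0.32 (SE 0.17), and FZD5, FZD8 and FZD6 had 0.14 (SE 0.22), -0.14 (SE 0.37) and -0.29 (SE 0.18), all with overlapping breeds. Over the 12 receptors the median log2 fold change was 0.19, with 8 above 0 and 4 below.

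At the cell surface, KREMEN1 and KREMEN2 take LRP6 out of the membrane together with DKK proteins, and the ubiquitin ligases ZNRF3 and RNF43 remove Frizzled receptors. ZNRF3 had 12.6, 13.7 and 13.5 CPM in SM and 12.3, 9.55 and 8.04 CPM in STH sheep, without overlap but with a gap of little size between 128 and XW3, and its log2 fold change was 0.41 (SE 0.20). KREMEN1, its neighbour at 21281 bases on chromosome 17, had 116, 104 and 142 CPM in SM and 105, 98.5 and 96.8 CPM in STH sheep, with overlap and a log2 fold change of 0.27 (SE 0.15). KREMEN2 and RNF43 had overlapping breeds and log2 fold changes of 0.44 (SE 0.45) and -0.11 (SE 0.16), and that of RNF43 turned sign with the length trend removed. The 4 surface inhibitors had a median log2 fold change of 0.34, which was 0.02 without SM sheep 30126.

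R-spondins bind LGR receptors and keep ZNRF3 and RNF43 from removing Frizzled receptors. LGR4 had 114.6, 89.3 and 70.3 CPM in SM and 119.4, 117.5 and 116.2 CPM in STH sheep. The STH sheep were close to each other and above all SM sheep, but SM sheep 128 lay just under them, and the log2 fold change was -0.37 (SE 0.18) with an unadjusted p of 0.0786. RSPO1 had 8.46, 8.61 and 9.30 CPM in SM and 5.54, 5.99 and 8.41 CPM in STH sheep, with a log2 fold change of 0.40 (SE 0.22). RSPO3, which is also known as a gene of the dermal papilla, had overlapping breeds and a log2 fold change of -0.38 (SE 0.34), and RSPO4 had -0.07 (SE 0.45). The 7 dermal papilla markers, among them RSPO3, summed to 275 to 539 CPM in SM and 290 to 457 CPM in STH sheep.

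Among the cytoplasmic genes NKD1 and AXIN2 are negative regulators that are also known as targets of the pathway. NKD1 had 44.2, 54.3 and 54.1 CPM in SM and 39.7, 32.1 and 36.4 CPM in STH sheep. The breeds did not overlap, with a log2 fold change of 0.50 (SE 0.15), an unadjusted p of 0.0107 and an adjusted p of 0.247. AXIN2 had 41.2, 45.3 and 51.2 CPM in SM and 37.2, 33.8 and 44.3 CPM in STH sheep, with a log2 fold change of 0.26 (SE 0.16), and only STH sheep XW8 overlapped with the SM sheep. AXIN1 was similar in size, at 0.21 (SE 0.16).

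CTNNB1 had the highest level of all and little difference between the breeds. Its CPM was 519, 597 and 674 in SM and 644, 589 and 496 in STH sheep. The log2 fold change was 0.05 (SE 0.17), and its sign turned when SM sheep 30126 or STH sheep XW8 was left out. APC, the scaffold of the degradation complex, had 116, 66.2 and 50.3 CPM in SM and 112, 147 and 108 CPM in STH sheep. SM sheep 128 stood with the STH sheep, and the log2 fold change was -0.66 (SE 0.29) with an unadjusted p of 0.0487 and an adjusted p of 0.276. Without SM sheep 128 the log2 fold change of APC was -1.07 and passed, with an adjusted p of 0.0207, and over all alternatives the adjusted p ranged from 0.0207 to 0.635. WNT2 and SFRP2 passed as well without that sheep, so that 3 of the 54 WNT genes then tested passed (5.56%), against 7.73% of all genes.

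The TCF/LEF factors carry the signal to the genome. LEF1, known from the follicle matrix, had 162, 157 and 232 CPM in SM and 163, 145 and 141 CPM in STH sheep, with a log2 fold change of 0.30 (SE 0.18). TCF7, TCF7L1 and TCF7L2 had log2 fold changes of 0.38 (SE 0.21), 0.15 (SE 0.16) and -0.0047 (SE 0.13), the last of which turned sign with upper quartile scaling and with the length trend removed. The breeds overlapped for all 4 genes. TCF7L2 was the most even of the 55 genes, with 1.13-fold between its highest and its lowest sheep. The widest ranges were those of SFRP4 (11.6-fold) and WNT8B (10.7-fold), followed by SFRP2 (9.33-fold).

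The libraries were not equal in the WNT genes. SM sheep 30126 had the highest CPM of the 6 sheep for 24 of the 55 genes and the lowest for 13, and STH sheep XW5 had the lowest for 19. SM sheep 30034 was the highest for 6 and the lowest for 1. LEF1, FZD10, WLS, KREMEN1, WNT6 and WNT10A were each highest in 30126. The follicle matrix and shaft markers (4459 CPM) and the sebocyte markers (1516 CPM) also had their highest sums in that sheep. The dermal papilla markers (275 CPM) and the suprabasal keratinocyte markers (2007 CPM) had their lowest sums there. The part of these markers in the values was not tested.

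The fold changes also moved with a trend of the counts on exon length. When each sheep's trend on exon length was removed, the median log2 fold change was 0.08 over all genes and 0.28 over the 55 genes. APC, 4.46 times as long as the median gene, then had -0.38 in place of -0.66, and LGR4 had -0.15 in place of -0.37. FZD4 had 0.56 in place of 0.32, FZD1 0.47 in place of 0.24, WLS 0.50 in place of 0.21 and CTNNB1 0.28 in place of 0.05. These are long genes as well, between 2.17 and 2.59 times the median length. SFRP2, at 0.302 times the median length, had -2.66 and passed with an adjusted p of 0.0350, whereas 0.0522% of all genes passed. WNT2 had 1.06. At an unadjusted p under 0.05 there were then 15 of the 55 genes (27.3%, against 19.7% of all genes tested), 11 with the higher mean in SM (20.0%, against 10.4%) and 4 in STH sheep (7.27%, against 9.31%). Over all genes the balance moved too, from 1104 genes higher in SM sheep and 1658 in STH sheep to 1590 and 1426.

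**Figure D5:**
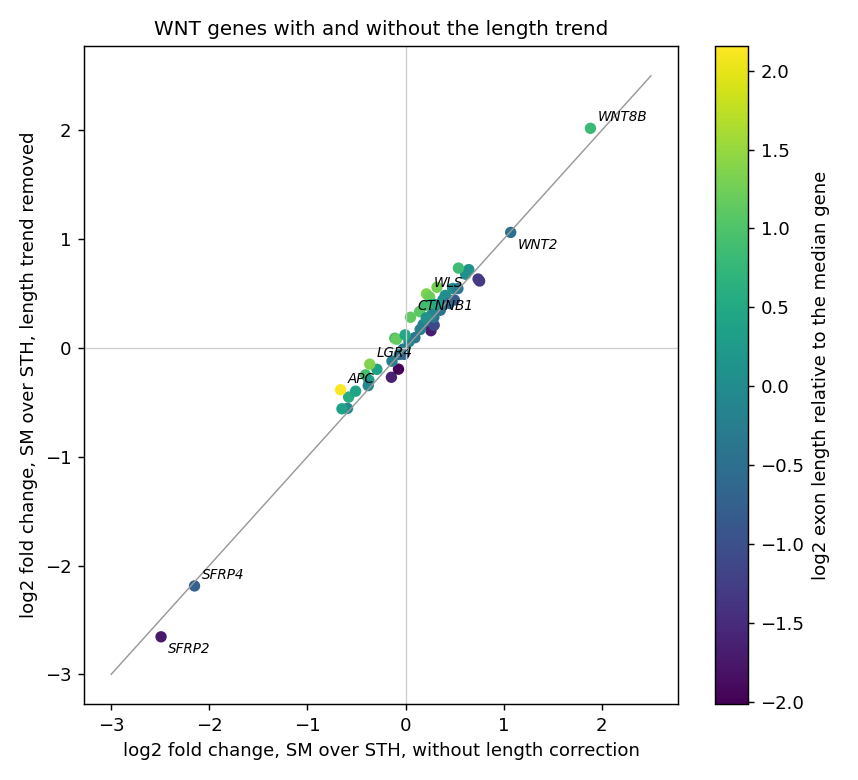
Log2 fold change (SM over STH) of the 55 WNT genes without correction (x axis) and with each sheep's trend on exon length removed (y axis), coloured by log2 exon length relative to the median gene; the line marks equal values. Long genes such as APC (-0.66 and -0.38) lie above the line, and SFRP2 (-2.49 and -2.66), a short gene, lies below it.

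Of the other genes of the pathway, 57 of 63 listed were found and tested. None passed the quasi-likelihood test, 9 had an unadjusted p under 0.05 (15.8%, against 18.0% of all genes tested), 5 of them with the higher mean in SM and 4 in STH sheep, and the median log2 fold change was 0.02, as over all genes tested. With the length trend removed it was 0.18, with 43 of the 57 genes above 0. Over all genes tested it was then 0.08, with 8730 of the 15320 genes above 0. The largest difference was that of APCDD1L, a relative of the WNT inhibitor APCDD1. It had 26.5, 24.6 and 43.1 CPM in SM and 20.8, 9.998 and 9.80 CPM in STH sheep, without overlap. The log2 fold change was 1.22 (SE 0.34) and the adjusted p 0.240, and over all alternatives the adjusted p ranged from 0.0226, by DESeq2, to 0.627.

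CCND2, a cyclin of the early cell cycle, and GPC3, a cell surface proteoglycan, had log2 fold changes of 0.50 (SE 0.15) and 0.49 (SE 0.17). The receptors of the branch independent of beta-catenin PTK7 and ROR2 had 0.39 (SE 0.16) and 0.40 (SE 0.17). Each of these 4 genes was higher in every SM sheep than in any STH sheep. The reverse held for LGR5, a receptor of R-spondins and a marker of hair follicle stem cells, which had 137, 125 and 104 CPM in SM and 150, 196 and 157 CPM in STH sheep, with a log2 fold change of -0.46 (SE 0.17) and an unadjusted p of 0.0234. LGR4 and LGR5 were thus both higher in every STH sheep. It also held for the phosphatase subunit PPP3CA, the kinase MAPK8 and the beta-catenin cofactor PYGO1, with log2 fold changes of -0.50 (SE 0.18), -0.52 (SE 0.22) and -0.43 (SE 0.18).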

How the data were processed

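Paired-end libraries of skin RNA, 1 for each of the 3 SM and 3 STH ewes, were made with a kit that does not mark strand and run on an Illumina HiSeq system. The authors checked the reads with FastQC, mapped them to Oar_v4.0 with CLC Genomics Workbench 9.0.1 and deposited, for each sheep and without pooling, whole-number total counts per gene without normalization. The deposited RPKM values are the counts scaled by exon length and library, and they were used only to set levels of different genes side by side. The deposited TPM values and a score that the authors call CPM were not used.

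The members, the lists and the tests were chosen with earlier results of these data known. The filter kept the 15320 genes with 10 or more counts in 3 sheep or more. Counts were scaled by TMM and tested by the quasi-likelihood test of edgeR 4.0.16 in R 4.3.3 with breed as the only term, and the Benjamini-Hochberg adjustment ran over all genes tested. Standard errors were obtained from the log2 fold change and the F statistic of the test. Alternatives were edgeR's likelihood ratio and exact tests, its newer dispersion estimate, DESeq2 1.42.0, limma-voom (limma 3.58.1), RLE and upper quartile scaling, other count filters, other thresholds, removal of a loess trend on exon length (span 0.5) within each sheep, and fits without 1 sheep at a time. The tests were tried on simulated counts. Members were named with values in every sheep, or with the range in each breed, where the unadjusted p was under 0.05, where the breeds did not overlap or where another test passed them, and the member of each role with the highest RPKM was added. WNT6, WNT10A, PORCN, SFRP5 and the other members are named outside this rule, to complete their groups. Total counts ranged from 28870583 to 44645091, and their number limits the precision of weakly expressed genes. Coordinates are gene spans of the files in Oar_v4.0. Of the 59 members, 55 matched the RefSeq name table by identifier with the same symbol. The spans of 8 members overlap another annotated gene, each with a total count of 0. CSNK1E, TLE1, CELSR1, LGR6, TRABD2A and ZNRF2 of the pathway list, and the markers KRT14, KRT31, KRT85, LOR and TCHH, were not analysed here. Exons, introns and sequences were not used here.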

Additional observations from a re-analysis of the deposited data

Results flagged for a closer look

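Counts were present for 3 of the 4 WNT genes left out of the tests, above the limit of 3 counts that a count of 0 allows. WNT1 had 2, 8 and 7 counts in SM sheep 128, 30034 and 30126, and 8, 12 and 10 counts in STH sheep XW3, XW5 and XW8. RSPO2 had 8, 2 and 0 counts in SM and 9, 40 and 9 counts in STH sheep, with the highest value in XW5. DKK4 had 8 counts in SM sheep 128 and 0 in the other sheep. WNT8A, the remaining gene, had 3 counts in STH sheep XW8 and 0 in the other sheep. The differences between the breeds were not tested for these genes. Groups of 3 sheep are too small for the check of single outlying samples.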

How the results depend on the processing

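The number of genes that passed depended on the test. Over all genes tested it was 0 with the quasi-likelihood test, 2 without a filter on low counts, 8 with the length trend removed, 352 by the likelihood ratio test, 332 by the exact test, 443 by DESeq2 and 5 at an adjusted p under 0.1, and it ranged from 0 to 1175 with 1 sheep left out, the highest without SM sheep 128. For the WNT genes it was 0, and it was 1 with the length trend removed (SFRP2), 2 by the likelihood ratio test, the exact test and DESeq2 (WNT2 and SFRP2), and 0 to 3 with 1 sheep left out, where the 3 without SM sheep 128 were WNT2, APC and SFRP2. For the other pathway genes it was 1 by the likelihood ratio test, the exact test and DESeq2 (APCDD1L) and 0 to 0 with 1 sheep left out. The median log2 fold change of the WNT genes ranged from 0.10, without SM sheep 30126, to 0.26. It was 0.20 with RLE and 0.24 with upper quartile scaling. The latter put 37 of the 55 genes above 0, against 34. Over all 15320 genes tested it put 8306 above 0, against 7873. The number of WNT genes at an unadjusted p under 0.05 was between 7 and 17 with 1 sheep left out, against 14 with all sheep. It was 17 of the 54 genes tested (31.5%) without SM sheep 128. In that fit 7.73% of all genes passed both thresholds, against 0 with all sheep. The share of all genes at that unadjusted level is not given for these fits. These counts therefore show only how the number moved, and nothing particular to the WNT genes. With upper quartile scaling, 1437 genes were higher in SM sheep at that level over all genes and 1402 in STH sheep, against 1104 and 1658, and 9 and 5 of the WNT genes, against 8 and 6. The length trend removal gave 1590 and 1426 over all genes. Another scaling or the length trend removal turned the sign of 5 of the 55 WNT genes, RNF43, WNT9B, SFRP5, TCF7L2 and PORCN, and of 13 of the 57 other pathway genes. The log2 fold change of CTNNB1 ranged from -0.048, without STH sheep XW8, to 0.14, without SM sheep 128, with -0.032 without SM sheep 30126. Of 572 values of 36 named genes under the alternatives, 557 kept direction and side of the thresholds, 13 newly passed and 2, both of CTNNB1, turned sign. The cause of these shifts was not tested. No paired analysis was possible because the sheep are individual animals whose labels give no pairing between the breeds. Counts under about 10 in a sheep limit what can be said of WNT1, WNT8A, WNT8B, RSPO2 and DKK4, and 3 sheep against 3 cannot give an exact permutation p under 0.1.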
